A study of Anolis chlorocyanus and Anolis cybotes and Anolis osa with 24 samples.

Results

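The comparison set the leg muscle of Anolis osa against the leg muscle of 3 other anoles, Anolis chlorocyanus, Anolis cybotes and Anolis sagrei. It used the 12 leg libraries of a series of 24 RNA sequencing libraries, 3 per species, chosen by the species and muscle that their labels give. The other 12 libraries of the series are jaw muscle of the same species, and the 3 osa jaw libraries with the 9 others served as a second look at the same contrast. All animals were males, and total RNA came from whole leg or jaw muscle extracted with Trizol. The labels give no age, treatment, captive or wild origin, and they do not say which leg muscle was taken. The contrast was the osa mean minus the mean of the 3 other species means, so that each other species weighed the same. Only 1 species stood on the osa side. The p-values therefore measure how libraries of a species spread around their mean, not how far species of anole differ in general.

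Anoles are a large group of mostly tree-living lizards in which species differ in limb use, perch and display. Anolis osa is a mainland Central American species of the Norops lineage, to which Anolis sagrei, the brown anole, also belongs. Anolis chlorocyanus and Anolis cybotes are species of Hispaniola, a green anole that lives high on trunks and in crowns and a ground-near trunk species. Leg muscle of lizards holds fibre types of different contraction speed, and the proteins of the contractile apparatus, of calcium release and of energy supply differ between them. The genes are given by identifiers of the type that Ensembl uses for Anolis carolinensis, the green anole of North America, a species that is not among the 4. The deposited table pairs these identifiers with no symbols, so the lists of fibre, metabolic and cell type genes could not be matched. Roles of single genes are not given for that reason.

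The leg libraries held 1471495 to 1962685 counts, and the 3 osa libraries 1520107, 1478274 and 1570679. Between 11959 and 12902 genes had at least 1 count in a library. In total count, genes detected, share of the 10 most abundant genes and scaling factor, the osa libraries were not separable from the other 9 at the threshold used (adjusted p from 0.655 to 0.786 over the 4 measures, two-sided exact permutation test over 220 assignments of libraries). Of the libraries that stood apart, 2 were of other species. The chlorocyanus 08 leg library had the lowest share of counts in its 10 most abundant genes, 19.6%, and correlated at 0.800 with chlorocyanus 04. The cybotes 08 leg library held the largest share of jaw-biased genes, described further on. In that share osa 07 came next, at 0.573%, close to cybotes 03 at 0.537%, and cybotes 01 held 0.347%. The shares of osa 04 and osa 05 were 0.0168% and 0.0481%.

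The 3 osa leg libraries resembled each other more than they resembled any other leg library. Spearman's rho of log2 CPM (read counts scaled to a common library size) over the 8568 tested genes was 0.888, 0.917 and 0.920 between osa libraries. With the 9 pairings it ran from 0.778 to 0.849 against sagrei (median 0.822), from 0.751 to 0.815 against cybotes (median 0.800) and from 0.690 to 0.799 against chlorocyanus (median 0.787). The correlations are across genes of single libraries, which share gene lengths but differ in depth, and they describe these libraries only. The ranges against the 3 species overlap. Likeness within a species was not particular to osa: rho was 0.892 to 0.903 within sagrei, 0.873 to 0.910 within cybotes and 0.800 to 0.915 within chlorocyanus. Over all tested genes the spread within osa was not wider than within the others. The median SD of log2(CPM + 0.5) was 0.393 in osa, 0.412 in sagrei, 0.424 in cybotes and 0.508 in chlorocyanus. For the genes found higher in osa below, it was 0.338 in osa and 0.414 to 0.469 in the others. For those found lower, it was 0.413 in osa, 0.381 in sagrei, 0.362 in cybotes and 0.440 in chlorocyanus.

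**Figure D1:**
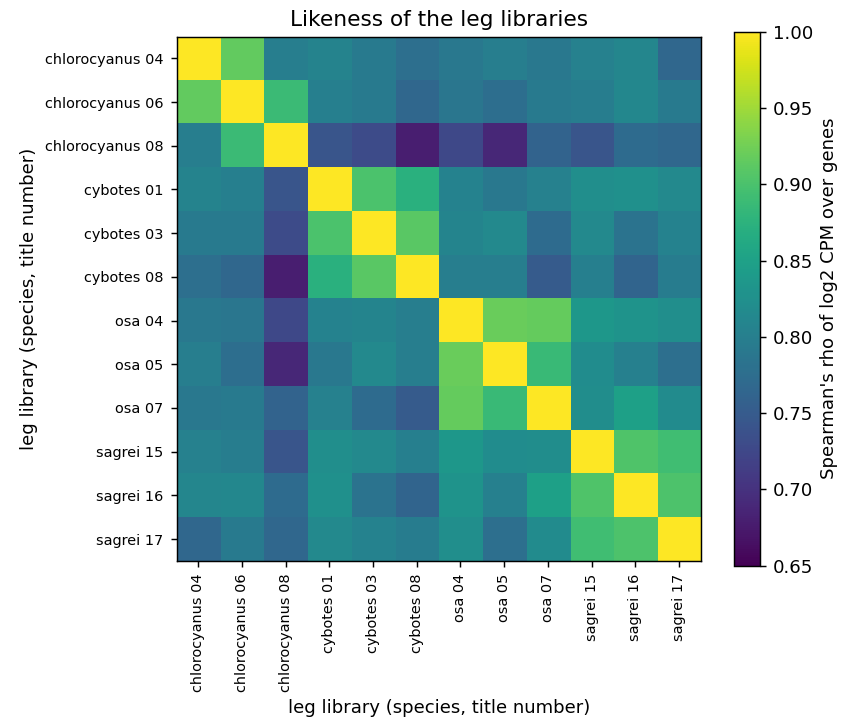
Spearman's rho of log2 CPM over the 8568 tested genes between the 12 leg libraries, by species and title number. The osa block (0.888 to 0.920) is brighter than its rows toward sagrei (0.778 to 0.849), cybotes (0.751 to 0.815) and chlorocyanus (0.690 to 0.799).

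Osa leg muscle differed from the mean of the 3 other species in 973 genes, of which 573 were higher and 400 lower in osa. This was 11.4% of the 8568 genes tested, 6.69% higher and 4.67% lower (edgeR quasi-likelihood test, Benjamini-Hochberg adjusted p of at most 0.05). The median log2 fold change was 1.49 among the higher genes, with quartiles of 1.11 and 2.04, and -1.54 among the lower genes, with quartiles of -2.22 and -1.20. Over all tested genes the median was -0.01. Changes of at least 2-fold made up 484 of the higher and 357 of the lower genes, at least 4-fold 150 and 125, at least 8-fold 50 and 45, and at least 32-fold 11 and 12. Reads of all species were counted on a shared set of identifiers. For any of these genes, a species difference in how reads map cannot be told apart here from one in expression.

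In reads, the 573 higher genes held 3.54%, 3.26% and 3.48% of the counts of osa 04, osa 05 and osa 07. In the other 9 leg libraries they held 1.08% to 1.79%, with a mean of 1.45% ± 0.215 (SD, n = 9). The 400 lower genes held 1.36%, 1.25% and 1.39% in osa against 2.68% to 4.40% elsewhere, with a mean of 3.23% ± 0.530 (SD, n = 9). The genes were picked on these libraries, so the shares describe their size and test nothing. The genes that set osa apart were thus a small part of what a leg muscle library held.

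The count depended on how the spread was measured. It also fell when any osa library was left out, which made the osa group smaller. When the 9 other libraries were treated as a single group, so that differences among the 3 other species entered the spread, 226 genes passed, 144 higher and 82 lower, and all 226 were among the 973. Without osa 04 the count was 473 of 9019 genes tested, without osa 05 543 of 9071 and without osa 07 550 of 9052. Without both the chlorocyanus 08 and cybotes 08 libraries it was 1189 of 8847. With no low-count filter it was 1760 of 16577 genes tested, beside 973 of 8568 in the main fit.

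**Figure D2:**
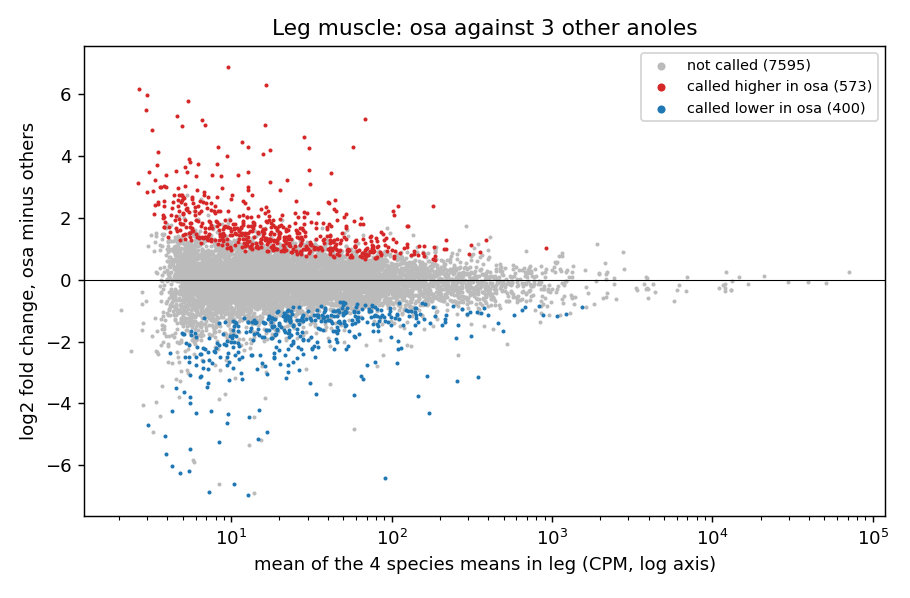
Log2 fold change of osa minus the mean of the other species in leg against mean CPM (log axis), 1 point per tested gene. The 573 genes called higher (red) and 400 called lower (blue) lie on both sides of 0, and the largest changes are mostly of genes with few reads.

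The share of higher genes among the calls fell with read number. Below 10 CPM, a class of 2118 genes, the calls were 184 upward and 70 downward in osa. Among 5180 genes from 10 to 100 CPM the counts were 353 and 271, among 1179 genes from 100 to 1000 CPM 36 and 56, and among 91 genes over 1000 CPM 0 and 3. CPM is not corrected for transcript length, so these classes rank reads rather than molecules. The mean CPM also rests on 9 other libraries and 3 of osa, which places genes higher in osa in lower classes. The median gene called higher stood at 30.4 CPM in osa and 11.8 in the others, and the median gene called lower at 9.51 and 32.4. The part of the ranking in the trend was not tested, and the trend is a description. The order above 100 CPM depended on the scaling. With library sizes that left out the 20 most abundant genes, 70 genes over 100 CPM were higher and 44 lower, against 36 and 59 with TMM factors. That scaling moved the median of all genes from -0.01 to 0.12 on the log2 scale and raised the share of higher genes among all calls from 58.9% to 73.6%, with 809 higher and 290 lower. Median-ratio size factors gave 35 and 58 above 100 CPM, and upper quartile factors 41 and 51.

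For most called genes osa was the extreme species. The osa mean was the highest of the 4 species means for 535 of the 573 higher genes and the lowest for 391 of the 400 lower genes. Among all 8568 tested genes it was the highest for 23.1% and the lowest for 24.7%. In 306 of the higher genes all 3 osa libraries lay above all 9 others, and in 210 of the lower genes all 3 lay below. Over all tested genes the osa libraries lay wholly above in 379 (4.42%) and wholly below in 274 (3.20%). These positions follow in part from the call itself and are given as a description.

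In the remaining called genes the mean of another species lay beyond that of osa. Of the 38 higher genes in which osa was not the highest, sagrei had the higher mean in 17, chlorocyanus in 11 and cybotes in 10. Of the 9 lower genes in which osa was not the lowest, sagrei was lower in 5, cybotes in 3 and chlorocyanus in 1. On a log2(CPM + 0.5) scale, the species nearest to osa was sagrei for 228 of the higher and 173 of the lower genes. That was 39.8% and 43.2%, beside 37.5% of all tested genes.

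Taken species by species, osa leg differed from chlorocyanus leg in 1600 genes (18.7% of 8568), 747 higher and 853 lower in osa. It differed from cybotes leg in 994 genes (11.6%), 504 higher and 490 lower. It differed from sagrei leg in 632 genes (7.38%), 323 higher and 309 lower. The 3 comparisons share the osa libraries and are set side by side, and the differences between their counts were not tested. Fitted on 6 libraries each, the counts were 1033, 1100 and 800. The median absolute log2 fold change over all tested genes was 0.63 against chlorocyanus, 0.56 against cybotes and 0.51 against sagrei. For the 573 higher genes the median log2 fold change was 1.64 against chlorocyanus, 1.46 against cybotes and 1.32 against sagrei. For the 400 lower genes it was -1.82, -1.49 and -1.38.

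Each of the other species, set in the same way against the remaining 3, also had many genes of its own. The count was 1703 for chlorocyanus (19.9%), 1058 for cybotes (12.3%) and 762 for sagrei (8.89%), beside 973 for osa. These contrasts use the same 12 libraries, and osa was neither the species with the most nor the one with the fewest calls.

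The genes with the largest increases were almost without reads in the other 3 species. ENSACAG00000032837 stood at 39.2, 22.9 and 49.1 CPM in osa 04, osa 05 and osa 07. In the other 9 leg libraries its lowest, median and highest levels were 0, 0 and 1.24 CPM, from 6 counts in all. All osa libraries lay above all others, by a pooled ratio of 91.2 with an exact 95% interval of 41.1 to 252, which covers counting error only. On the log2 scale the fitted change came to 6.87 ± 0.55 (SE), at an edgeR adjusted p of 6.55e-05. The cybotes legs had 0 counts of it, so the size of this change and its error are approximate.

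ENSACAG00000016212 reached 47.2, 59.2 and 83.7 CPM in the osa leg libraries. The 9 others had 12 counts together, and their lowest, median and highest levels were 0, 0.778 and 1.64 CPM. The groups did not overlap, and the pooled ratio was 77.2 with an exact 95% interval of 43.5 to 151. The fitted change came to 6.30 ± 0.38 (SE) in log2 units, at an edgeR adjusted p of 8.41e-07. Like ENSACAG00000032837, this gene passed the low-count filter only through osa. The p-values of both genes are therefore given as a description.

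The genes with the largest decreases had no count in any osa leg library. ENSACAG00000010362 had 0 counts in all 3, against 2.21 to 90.6 CPM in the 9 others, with a median of 5.56 CPM. Its level among the others was uneven, at 6.27 ± 1.80 CPM in chlorocyanus, 3.20 ± 0.881 in cybotes and 41.6 ± 42.8 in sagrei (SD, n = 3), with sagrei 17 the highest. Against a floor of 3 counts over the osa libraries, or 0.629 CPM, its mean was at least 27.1-fold lower in osa, or at least 12.5-fold without sagrei 17. The edgeR adjusted p was 0.00644, and it was 0.0729 with the 9 other libraries as one group. Over the other settings that tested it, it ran from 6.02e-10 by edgeR with no low-count filter to 0.0311 by limma voom. The gene was not among those tested when the sagrei libraries were left out, so its place in the contrast rested on sagrei.

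ENSACAG00000012446 likewise had 0 counts in the 3 osa leg libraries. The 9 others stood at 2.47 to 19.9 CPM, with a median of 10.4 CPM, with species means of 4.89 ± 2.17 CPM in chlorocyanus, 9.64 ± 3.71 in cybotes and 14.6 ± 4.85 in sagrei (SD, n = 3). Its mean was at least 15.4-fold lower in osa against the same floor of 3 counts over the group (edgeR adjusted p = 0.000945). This gene and ENSACAG00000010362 passed the low-count filter only through other species, so their p-values are given as a description. All 4 genes were picked as the 2 largest changes in each direction among called genes of at least 5 CPM whose groups did not overlap, so the lack of overlap was required of them.

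**Figure D3:**
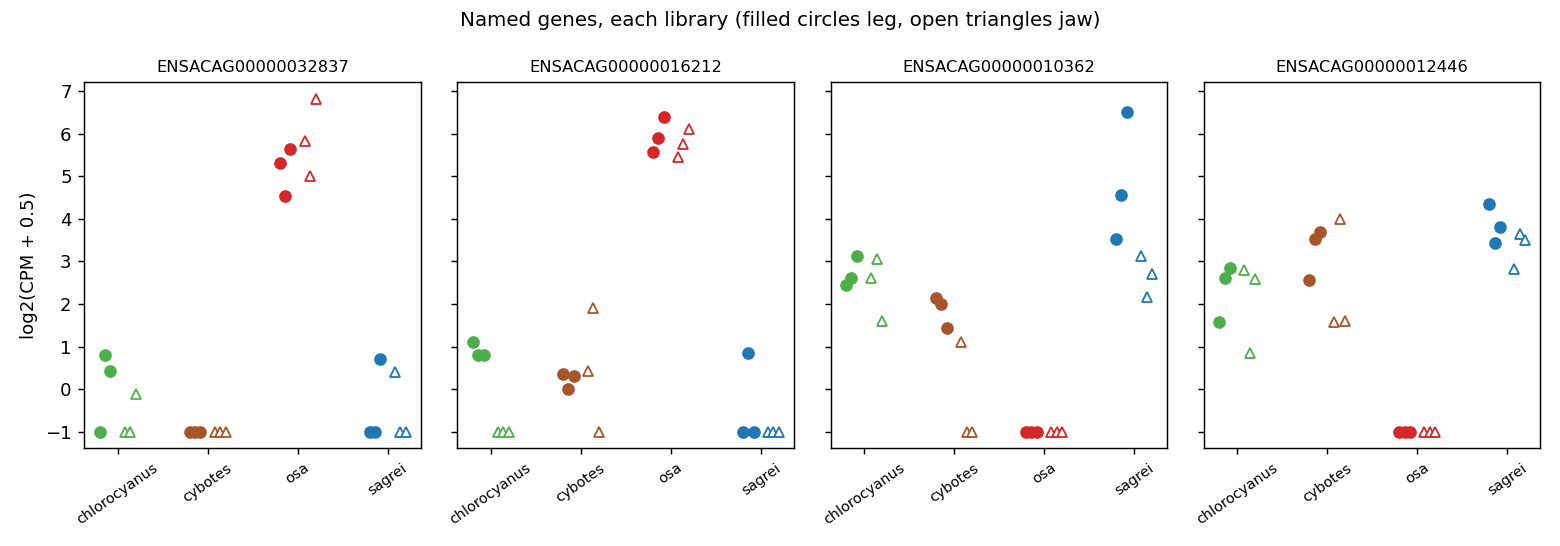
Log2(CPM + 0.5) of the 4 named genes in every leg library (filled circles) and jaw library (open triangles), by species. The genes with the largest increases stand at 22.9 to 83.7 CPM in osa leg and at most 1.64 CPM in other legs, and the genes with the largest decreases are at 0 in all osa libraries of both muscles.

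The jaw libraries had no part in the choice of these genes, and all 4 kept their direction there by level. Here jaw CPM were scaled among jaw libraries only. ENSACAG00000032837 stood at 56.2, 31.9 and 112 CPM in osa 04, osa 05 and osa 07 jaw, while the 9 other jaw libraries had 2 counts in all. ENSACAG00000016212 stood at 43.4, 53.3 and 69.0 CPM in osa jaw, beside 5 counts in the 9 others. Their jaw log2 fold changes were 8.39 (SE 0.58) and 7.96 (SE 0.56), with edgeR adjusted p of 5.27e-06 and 1.61e-05. In jaw too both genes passed the low-count filter only through osa, so these p-values are a description. Osa 07 was the highest and osa 05 the lowest for ENSACAG00000032837 in both muscles.

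ENSACAG00000012446 had 0 counts in the 3 osa jaw libraries and 89 in the 9 others, at 7.02 ± 4.84 CPM (SD, n = 9), with an edgeR adjusted p of 0.00677. It entered the jaw test only through other species, so this p-value is a description as well. ENSACAG00000010362 too had 0 counts in osa jaw. Its 9 other jaw libraries held 52 counts, and it did not pass the low-count filter in jaw. In cybotes its jaw counts were 2, 0 and 0, so osa was not alone in libraries without it.

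A gene with no reads in a species is a pattern that the count table shows for other species too. Of the 25920 identifiers, 19 had 0 counts in all 3 osa legs and at least 1 count in each of the 9 other legs. The number was 39 for chlorocyanus, 13 for cybotes and 16 for sagrei, each set against its own 9 others. Of the 19 genes, 13 had 0 counts in all 3 osa jaw libraries as well. In their own jaw libraries it was 22 of 39 for chlorocyanus, 7 of 13 for cybotes and 8 of 16 for sagrei. Of the 19 osa genes, 5 had counts in all 9 other jaw libraries. That number was 10 for chlorocyanus, 5 for cybotes and 3 for sagrei. In the other direction, 20 identifiers had counts in all 3 osa legs and none in the 9 others, beside 31 for chlorocyanus, 26 for cybotes and 20 for sagrei. Of those 20, 9 had counts in all 3 osa jaw libraries and 11 had none in the 9 other jaw libraries. The like numbers were 18 and 17 of 31 for chlorocyanus, 6 and 15 of 26 for cybotes and 4 and 13 of 20 for sagrei. The reads of the 20 osa identifiers were few, with a median of 8 counts over the 3 osa legs and a highest value of 44. Of the 8568 tested genes 23 had 0 counts in all osa legs, and 10 of these were among the 400 called lower. All 23 passed the low-count filter only through other species. Reads were counted on identifiers shared by the 4 species, and a change in the sequence of a gene that stops its reads from mapping cannot be told apart here from a gene that is not expressed.

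Among the called genes with the most reads, osa was mostly the lower species. Of the 10 with the highest mean CPM, 9 were lower in osa. They ranked from 54th to 212th by mean CPM among the tested genes, so no gene ranked above the 54th was called. All 10 kept their direction under the 3 other scalings, by limma voom and by DESeq2. With upper quartile factors 7 of them were called, and 8 when the 20 genes with the most reads were left out of the library sizes. A ranking by mean CPM favours genes lower in osa, because 9 of the 12 leg libraries are of the other species.

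The first of these genes stood at 890, 1010 and 935 CPM in osa 04, osa 05 and osa 07 leg, and at 1060 to 2316 CPM with a median of 1740 in the 9 others. The osa libraries lay below all others. The fitted log2 change came to -0.87 ± 0.26 (SE) in leg, with an edgeR adjusted p of 0.0446, and to -1.05 ± 0.24 in jaw, with 0.00777. The second stood at 659, 800 and 504 CPM in osa leg against 850 to 2036 CPM, again without overlap (log2 fold change -1.10, SE 0.29, edgeR adjusted p = 0.0271). In jaw its log2 change came to -1.27 ± 0.28 (SE), with an edgeR adjusted p of 0.00594.

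The fourth gene by reads was the higher one of the 10. It stood at 1488, 1070 and 1536 CPM in osa leg, at 1338 ± 273 in sagrei, at 563 ± 90.3 in cybotes and at 393 ± 124 in chlorocyanus (SD, n = 3). The osa and sagrei libraries overlapped, while both lay above every cybotes and chlorocyanus library. Against the mean of the 3 species the log2 change came to 1.03 ± 0.24 (SE), with an edgeR adjusted p of 0.0144.

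The tenth gene had the largest decrease of the 10. It stood at 144, 117 and 298 CPM in osa leg and at 351 to 1357 CPM in the 9 others, and osa 07 was the nearest to them. In leg the log2 change came to -1.65 ± 0.45 (SE), with an edgeR adjusted p of 0.0285, and in jaw to -2.77 ± 0.32, with 0.000109. Of the 10 genes, 8 separated all osa leg libraries from all others, and the fourth and sixth did not. Among all called genes 306 of 573 higher and 210 of 400 lower did so, beside 4.42% (above) and 3.20% (below) of all tested genes. The 10 were picked among called genes, so their separation follows in part from the call and is a description.

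**Figure D4:**
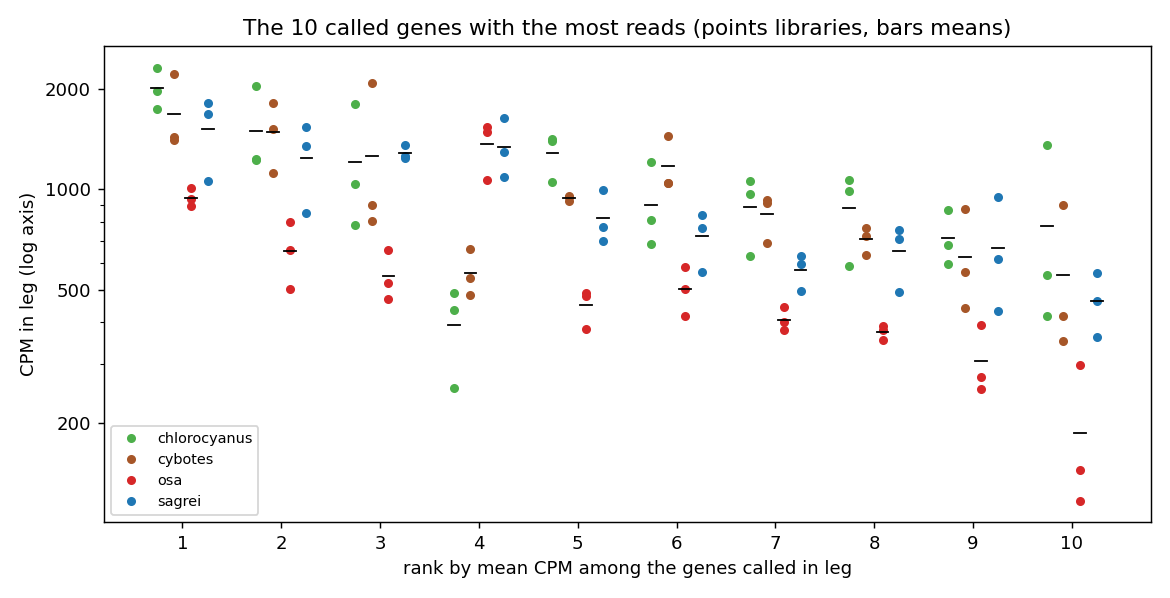
CPM (log axis) in each leg library of the 10 called genes with the most reads, by species, with bars at the species means. Osa lies below the other species in 9 of the 10, and in the fourth it lies with sagrei, at 1070 to 1536 CPM in osa.

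The differences of osa leg from other legs mostly had the same sign in jaw. Of the 973 called genes 868 could be tested in jaw. In 860 of these, or 99.1%, the osa difference had the same sign there. The same contrast in jaw alone called 1521 of 7805 genes (19.5%), and 1465 of the 7602 genes tested in both muscles (19.3%). Of the 868 leg genes 643 (74.1%) were called in jaw, all in the same direction. By direction this was 372 of 496 higher and 271 of 372 lower genes. Among the 6734 genes not called in leg, 78.4% had the same sign in jaw and 11.8% were called there in the same direction.

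The size of the difference in jaw was close to that in leg. The median log2 fold change of the 496 higher genes was 1.39 in leg and 1.35 in jaw, and that of the 372 lower genes -1.46 in leg and -1.37 in jaw. The genes were picked on leg, which raises the leg values. Of 266 higher genes in which the osa libraries lay wholly above the others in leg, 176 (66.2%) did so in jaw, beside 5.67% of all genes tested in both. Of 198 lower genes wholly below in leg, 107 (54.0%) were wholly below in jaw, beside 4.01%. The 8 leg genes of other sign in jaw had an absolute jaw log2 fold change of at most 1.05 and an edgeR adjusted p of at least 0.0598. No library entered both contrasts. Jaw reads were counted on the same identifiers, so a species difference in how reads map would enter both muscles and was not tested. Leg and jaw libraries of the same title number deviated together from their group means, at correlations of 0.296 to 0.740. The 2 muscles are thus not independent sets of samples. The labels do not say that a title number is an animal, and what such libraries share was not tested.

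**Figure D5:**
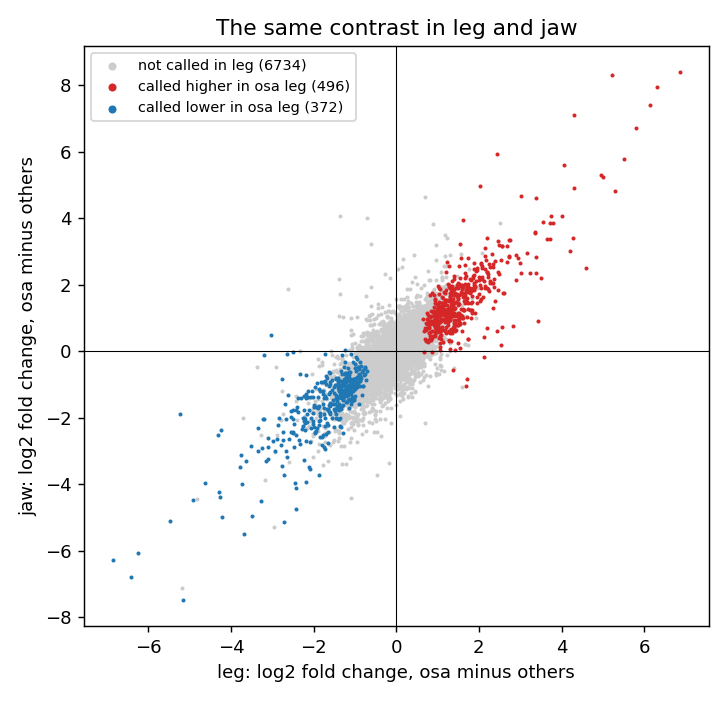
Log2 fold change of osa minus the mean of the other species in jaw (y axis) against leg (x axis) for 7602 genes tested in both. Of the 868 genes called in leg (496 red, 372 blue), 860 lie in the quadrants of equal sign.

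Whether the osa difference itself differed between leg and jaw was tested on all 24 libraries. A single gene passed out of 9123 (0.011%) by edgeR's quasi-likelihood test, and 286 had an unadjusted p under 0.05. With the title number as a block, which pairs the leg and jaw libraries, 43 passed (0.471%), with 1006 at an unadjusted p under 0.05. Without the block, which leaves the pairing out, DESeq2 called 11 genes and limma voom 2. Also without it, edgeR called none when any 1 of the osa leg libraries was left out. In these edgeR fits, 268 to 340 genes had an unadjusted p under 0.05. With the block, edgeR called 34, 26 and 27 genes without osa number 04, 05 or 07. Of the leg calls 968 entered the blocked test and 12 passed it.

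In 17 of the 43 genes the osa difference was more positive in leg, by a median of 1.77 on the log2 scale, with a median of 1.56 in leg and -0.73 in jaw. In 26 it was more negative in leg, by a median of -2.25, with a median of -0.22 in leg and 1.70 in jaw. The estimates in leg and jaw had opposite signs in 27 of the 43, and the leg estimate was the larger in size in 16. All 43 differed between muscles by at least 2-fold. These genes were picked on the difference that is described.

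The single gene that passed without the block, ENSACAG00000008002, was named after its values were seen. With CPM scaled over all 24 libraries, it stood at 8.13 ± 4.06 in osa leg, near chlorocyanus leg at 8.97 ± 7.18 and sagrei leg at 9.0 ± 4.30, while cybotes leg had 24.1 ± 8.13 (SD, n = 3). In jaw osa was the highest, at 49.9 ± 15.3 CPM, followed by cybotes at 19.2 ± 1.46, sagrei at 11.1 ± 2.37 and chlorocyanus at 0.660 ± 0.219 (SD, n = 3). The 3 osa jaw libraries, at 32.4 CPM or more, lay above all other jaw libraries, of which the highest had 20.7 CPM. The osa difference was -0.62 in leg (edgeR adjusted p = 0.506) and 3.22 in jaw (edgeR adjusted p = 7.54e-06), both on the log2 scale. The difference between them was -3.84 (SE 0.65, edgeR adjusted p = 0.0494), and with the block -3.75 (SE 0.48, edgeR adjusted p = 0.000409). The chlorocyanus jaw libraries held 3 counts of this gene in all. The sizes of the jaw change and of the difference, with their errors, are therefore approximate.

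The genes that mark leg against jaw in the other species were called in the osa leg contrast about as often as genes at large. In the 18 libraries of chlorocyanus, cybotes and sagrei, 68 genes were called at least 8-fold higher in leg and 24 at least 8-fold higher in jaw. All 68 leg-biased genes were tested in the osa leg contrast, and 6 were called higher and 1 lower, or 10.3% beside 11.4% of all tested genes. Their median log2 fold change was 0.08. Of the 24 jaw-biased genes 14 could be tested in leg, and 1 was called, higher in osa. The bias was defined partly on the 9 leg libraries that the contrast also uses, so these counts are a description.

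In reads, the leg-biased genes held 12.4%, 13.6% and 10.5% of the counts of osa 04, osa 05 and osa 07 leg. The 9 other legs held 5.70% to 15.3%, with a median of 12.2%, and chlorocyanus 08 was the lowest. The osa libraries lay within the range of the others. The jaw-biased genes held 0.0168%, 0.0481% and 0.573% in osa 04, osa 05 and osa 07 leg. Osa 07 thus stood above the other osa legs and above every leg of another species except cybotes 08. Cybotes 03 was close to it, at 0.537%, and cybotes 01 held 0.347%. In the 9 others the share ran from 0.0224% to 2.35%, with a median of 0.0481% and cybotes 08 the highest. Both sets were chosen partly on these 9 libraries, so the shares too are a description, with no test. In whole muscle, more fibres of a type and more RNA per fibre cannot be told apart. The part of the jaw-biased reads of osa 07 in the osa calls was not tested. The count of 550 without that library cannot show it, because the osa group was then smaller.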

How the data were processed

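For 24 libraries the authors deposited raw read counts in 1 table, as whole numbers with no normalization. Reads were aligned with STAR, per the submitters' processing notes. Not given in the sources used here are the build, annotation, counting program and strand setting. All columns match sample titles. The tests used edgeR 4.0.16 under R 4.3.3. The 12 leg libraries were filtered with filterByExpr over 4 species, which left 8568 of 25920 identifiers, and scaled by TMM. The quasi-likelihood F-test had 8 residual degrees of freedom, and a gene was called at a Benjamini-Hochberg adjusted p under 0.05. CPM use TMM-scaled library sizes, and 3 counts correspond to 1.25 to 2.47 CPM in a leg library. Each standard error was taken as the absolute log2 change divided by the root of F. It is approximate, and unreliable for genes with a species near 0 counts. The jaw fit was the same on 12 jaw libraries. The leg-minus-jaw difference was fitted on 24 libraries, with and without a term per title number. In all 12 numbers the leg library correlated best with its own jaw library. The replicate libraries of a species differed beyond sampling noise (chi-square per degree of freedom 5.30 to 42.1). The labels do not say that they are separate animals, so p-values measure the spread between samples, which may be technical. Intervals and floors cover counting error only. Alternatives used DESeq2 1.42.0 and limma 3.58.1. Named genes were the 2 largest changes in each direction among called genes with at least 5 CPM on the higher side and no overlap of groups. The contrast, classes and alternatives were chosen with earlier results of these data known.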

Additional observations from a re-analysis of the deposited data

Results flagged for a closer look

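The difference of osa from the other species itself differed between leg and jaw in 43 of 9123 genes in the fit with the title number as a block (edgeR quasi-likelihood test of that difference, adjusted p under 0.05). Among them 17 were more positive and 26 more negative in leg. It is listed here because a difference between muscles in the same contrast was tested and passed. Without the block 1 gene passed. No explanation was tested.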

How the results depend on the processing

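For the osa leg contrast, 973 genes called (573 higher, 400 lower), 20 of 25 alternatives stayed within 1.5 times of the count, and no called gene was called in the opposite direction under any of the 25. The count was 1760 of 16577 genes tested (1054 higher, 706 lower) without the low-count filter. It was 226 of 8568 (144 and 82) with the other 9 libraries as one group. Leaving out 1 leg library gave 473 to 1241 genes, 323 to 752 higher and 150 to 489 lower, with the lowest values without osa 04. Against chlorocyanus the count was 1033 with only both species in the fit, and without a filter it was 1660 against cybotes and 1300 against sagrei. The jaw count stayed within 1.5 times of 1521 in 3 alternatives. The test of leg against jaw differences called 1 gene, and with the replicate block 43, or 41 by limma voom with the block as a random effect. With the block it was 34, 26 and 27 without osa 04, 05 or 07 and 61 without the libraries numbered 08. Without the block it was 2 by limma voom, 11 by DESeq2, 27 without a filter and 0 without any 1 osa leg library. The share of leg calls with the same sign in jaw was 97.0% without a filter and 98.2% to 99.1% otherwise. Chosen after seeing the data were the settings without libraries numbered 08, the block as a random effect or with libraries left out, and all alternatives for the same-sign share. For the osa leg contrast alone, no paired analysis was possible because numbers of different species mark different animals and osa shares at most 1 number with another species. The named genes kept their direction in every setting that tested them. At these depths, a gene at 0 in a library may lie below about 1.25 to 2.47 CPM.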
